A study of Homo sapiens with 8 samples.

Results

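Mammalian cells import iron bound to transferrin, store it in ferritin and export it through ferroportin, and they adjust all of these steps together. TFRC, STEAP3, SLC11A2, FTH1, FTL, NCOA4, SLC40A1, IREB2 and FBXL5, which code for the uptake, storage, export and sensing machinery, were described here from RNA-seq of hypoxic cancer cells. The 9 genes were chosen by name, and every listed RefSeq transcript of each was taken, which gave 26 of the 24812 entries of the deposited table and 9 of the 14524 genes that could be named. SQ20B, an established line from a human head and neck squamous cell carcinoma, was sequenced as 4 normoxic and 4 hypoxic libraries, the latter from cells kept at 0.5% O2 for 16 h. Both groups were this single line, maintained in DMEM with fetal bovine serum. The table gives 1 FPKM value (a fragment count scaled to transcript length and to library size) for each transcript and condition, over the 4 libraries of that condition. A spread between replicates could therefore not be computed, and every difference below is a description without a test or an error.

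Cellular iron is read by the iron regulatory proteins IRP1 (ACO1) and IRP2 (IREB2). In iron-poor cells these proteins bind hairpins called iron-responsive elements (IREs). A hairpin in the 5′ untranslated region of an mRNA blocks its translation, whereas hairpins in the 3′ untranslated region of the transferrin receptor mRNA protect it from decay. FBXL5 marks IRP2 for degradation and holds an iron and oxygen binding domain, so this circuit is known to answer to oxygen as well as to iron. Expression in RNA-seq reports mRNA level alone, and translation and protein stability were not measured.

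The IREs were searched for because the regulatory proteins bind them, though a match of letters does not show binding, which was not measured. The pattern was a bulged C, a 5-base stem, the 6-base loop CAGTGN and the matching stem strand, with G-T pairs and 1 mismatch allowed, on the transcript strand of the GENCODE reference transcript of each gene (GRCh37, the same build as hg19). Of the 9 members, 6 held a match, and 4 of them (TFRC, FTH1, FTL and SLC40A1) held one with a fully paired stem. Over 18922 reference transcripts, 1.34% held a fully paired match and 10.2% a match with at most 1 mismatch. In the sequences below, written 5′ to 3′ as DNA, the capitals mark the bulged C and the loop.
TFRC element 1, 3′ untranslated region, chr3:195777850-195777878, minus strand: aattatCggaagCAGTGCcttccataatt
TFRC element 2, 3′ untranslated region, chr3:195777446-195777474, minus strand: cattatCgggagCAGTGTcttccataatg
TFRC element 3, 3′ untranslated region, chr3:195777381-195777409, minus strand: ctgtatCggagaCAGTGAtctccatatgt
TFRC element 4, 3′ untranslated region, chr3:195777334-195777362, minus strand: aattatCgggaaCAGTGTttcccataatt
FTH1 element, 5′ untranslated region, chr11:61735046-61735074, minus strand: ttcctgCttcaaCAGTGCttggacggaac
FTL element, 5′ untranslated region, chr19:49468592-49468620, plus strand: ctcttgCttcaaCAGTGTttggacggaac
SLC40A1 element, 5′ untranslated region, chr2:190445387-190445415, minus strand: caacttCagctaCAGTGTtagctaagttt
SLC11A2 element, 3′ untranslated region, chr12:51382052-51382080, minus strand: agccatCagagcCAGTGTgtttctatggt
The match of SLC11A2 had 1 stem mismatch, and 4 of its 17 coding GENCODE transcripts held a match to the pattern. Whether each of these 4 holds the printed element was not checked. IREB2 also held a match with 1 mismatch in its 3′ untranslated region. STEAP3, NCOA4 and FBXL5 held no match to these letters.

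FPKM of all listed transcripts was summed for each gene, and the change was computed as log2((hypoxia FPKM + 0.1)/(normoxia FPKM + 0.1)). A minimum of 0.5 FPKM, averaged over both conditions, left 12103 genes, and all 9 members were among them. Over the 12103 genes the median log2 change was -0.07, and the 25th and 75th percentiles were -0.36 and 0.24. The deposited FPKM columns summed to 536005 in normoxia and 458431 in hypoxia. Scaling the columns to equal sums shifted the median of all genes from -0.07 to 0.15, so the percentile of each gene among all genes, which a common factor does not alter, is given beside its change. Depths of single libraries are unknown here. The labelled hypoxia was checked with PDK1, BNIP3, EGLN3, ANKRD37, SLC2A1 and CA9, targets of the hypoxia response, and all 6 were at least 1.5-fold higher, with log2 changes from 1.36 to 4.77. Of 7 squamous epithelial markers, 6 were listed, with a summed level of 574 FPKM in normoxia and 643 in hypoxia, and KRT14 was not listed. KRT5 made up most of this sum (398 and 442 FPKM), whereas KRT6A (5.10 and 3.26 FPKM, log2 change -0.63) and SFN (log2 change -0.21) had lower values in hypoxia as deposited. No fibroblast or erythroid marker was listed, the leukocyte markers summed to at most 0.132 FPKM, and of the endothelial markers PECAM1 was not listed while CDH5 stood at 4.78 FPKM in normoxia and 2.83 in hypoxia.

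Most of the iron genes stayed within 1.5-fold between the conditions. At a limit of 1.5-fold, 1 of the 9 genes (SLC40A1) was higher in hypoxia, where 9.94% of all 12103 genes were, and 0 of the 9 were lower, where 11.2% of all genes were. In either direction it was 1 of 9 beside 21.2% of all genes. In bulk RNA, a different mix of cells and a different amount of RNA per cell cannot be told apart. The members' median log2 change of -0.10 was near that of all genes. As deposited, 4 members had a positive and 5 a negative change. After scaling to equal sums these numbers were 7 and 2, with SLC11A2, NCOA4 and IREB2 switching sign, and after quantile normalization they were 6 and 3.

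**Figure D1:**
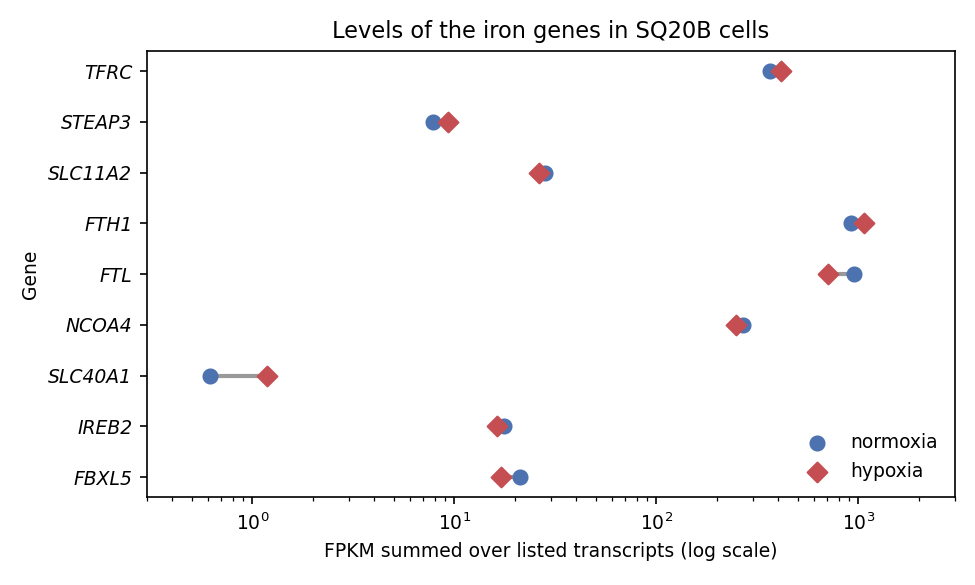
FPKM of the 9 iron genes in normoxia (circles) and hypoxia (diamonds), 1 value per condition over 4 libraries, on a log axis. The ferritin genes reach 708 to 1069 FPKM and SLC40A1 stays near 1 FPKM, while FTH1 and FTL lie close together in normoxia (924 and 947 FPKM) and farther apart in hypoxia (1069 and 708).

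TFRC, the transferrin receptor that carries iron-loaded transferrin into endosomes, lies on chromosome 3 of hg19 (195776155 to 195809032). It had 366 FPKM in normoxia and 414 in hypoxia (log2 change 0.18), at percentile 70.4 of all genes. Its level ranked 193rd of the 12103 genes in normoxia and 130th in hypoxia. Nearly all of this signal came from NM_001128148, which had 365 and 412 FPKM and carried 99.7% of the sum in either condition. The other transcript, NM_003234, had 0.936 FPKM in normoxia and 1.36 in hypoxia. TFRC carries the 4 fully paired elements shown above, and its mRNA was abundant in both conditions, with a slightly higher value in hypoxia under each scaling (log2 change 0.18 to 0.50).

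STEAP3 reduces ferric iron in the endosome, so that it can leave by the divalent metal transporter. The gene lies on chromosome 2 (119981384 to 120023227). It had 7.80 FPKM in normoxia and 9.26 in hypoxia (log2 change 0.25), at percentile 75.1. All 3 listed transcripts had higher values in hypoxia. NM_001008410, the most abundant, had 6.42 and 7.45 FPKM, and NM_182915 had 1.13 and 1.41. Its level per length was 0.0213 of that of TFRC in normoxia and 0.0224 in hypoxia.

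SLC11A2 codes for the divalent metal transporter DMT1, which moves ferrous iron out of the endosome. It lies on chromosome 12 (51373566 to 51422058) and had 28.2 FPKM in normoxia and 26.3 in hypoxia (log2 change -0.10), at percentile 47.0. Of its 8 listed transcripts, 5 passed the FPKM minimum, and the log2 changes of these 5 ran from -0.36 to 0.04. NM_001174128 was the most abundant, with 9.68 FPKM in normoxia and 9.94 in hypoxia. NM_001174125 had 8.43 and 6.55 FPKM, and its share of the summed SLC11A2 FPKM was 29.9% in normoxia and 24.9% in hypoxia. Which of the listed accessions hold the element printed above was not determined here.

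Ferritin, the storage shell, is assembled from heavy and light chains. FTH1 codes for the heavy chain, which oxidises ferrous iron as it enters the shell, and FTL for the light chain, which helps to form the mineral core. FTH1 had 924 FPKM in normoxia and 1069 in hypoxia (log2 change 0.21), at percentile 72.8. FTL, on chromosome 19 (49468566 to 49470136), had 947 FPKM in normoxia and 708 in hypoxia (log2 change -0.42), at percentile 20.7. The chains thus differed in opposite directions, as they did under each scaling, and neither passed 1.5-fold. The size of each change depended on the scaling. FTL had a log2 change of -0.19 with equal sums and -0.084 after quantile normalization, where FTH1 had 0.44 and 0.54. Their sum was 1871 FPKM in normoxia and 1777 in hypoxia (log2 change -0.07), equal to the median of all genes at this precision.

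The ratio of heavy to light chain mRNA does not depend on a common scaling of the columns. FTH1 stood at 0.975 times the FTL level in normoxia and at 1.51 times in hypoxia, so the ratio was 1.55-fold higher in hypoxia. Quantile normalization left the log2 change of this ratio at 0.62, against 0.63 as deposited. Both mRNAs hold an element in the 5′ untranslated region (sequences above). RefSeq names 27 FTH1 and 20 FTL pseudogenes, copies from which reads may be shared or lost. Of the FTH1 copies, FTH1P3 was in the table, with 1.01 and 0.795 FPKM. The locus that the table gives for FTH1, on chromosome 11 (61717356 to 61735132), also spans the neighbouring gene BEST1, whose 2 listed transcripts reached at most 0.829 FPKM in either condition. The part of pseudogene reads in the ratio was not tested.

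**Figure D2:**
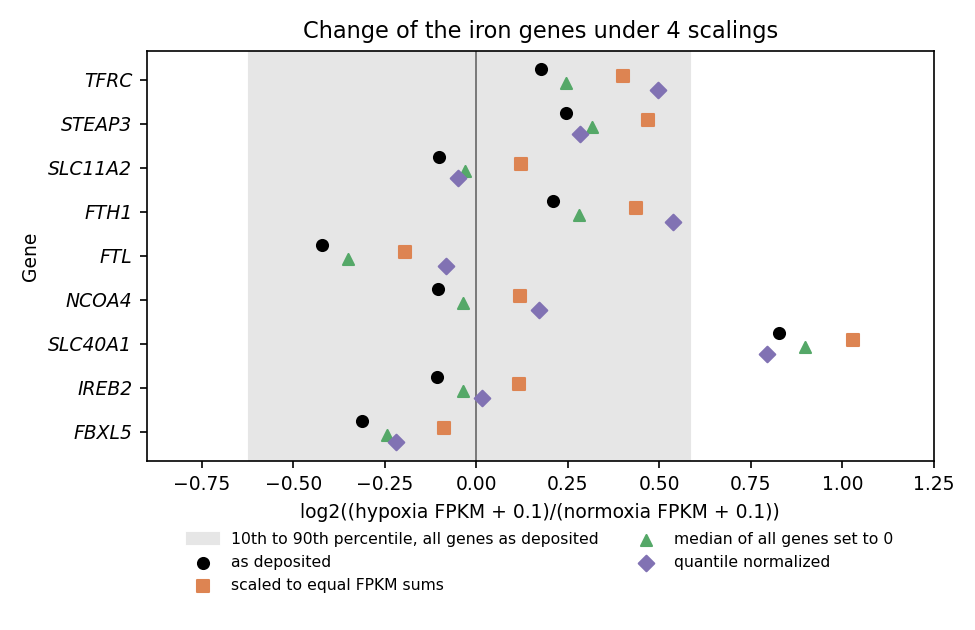
log2 change (hypoxia over normoxia, with 0.1 FPKM added) of each iron gene as deposited and under 3 other scalings, with the 10th to 90th percentile of all genes as deposited shaded (-0.62 to 0.58). SLC40A1 lies to the right of the shaded range under each scaling, TFRC, STEAP3 and FTH1 lie above 0 and FTL and FBXL5 below 0 under each, and SLC11A2, NCOA4 and IREB2 have both signs.

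NCOA4 is the cargo receptor that delivers ferritin to autophagosomes and so releases stored iron. Its gene, on chromosome 10 (51565108 to 51590734), had 267 FPKM in normoxia and 249 in hypoxia (log2 change -0.11), at percentile 46.6. The summed level hid a difference between its transcripts. NM_001145263 had 168 FPKM in normoxia and 117 in hypoxia (log2 change -0.53). NM_005437 had 95.8 and 127 FPKM (log2 change 0.41). The share of NM_001145263 in the summed FPKM was therefore 63.0% in normoxia and 47.1% in hypoxia, and that of NM_005437 was 35.8% and 51.1%, so that the order of the leading transcripts was exchanged.

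The other NCOA4 transcripts were rare. NM_001145262 had 2.29 and 3.96 FPKM, a 1.70-fold higher value. NM_001145261 had 0.751 and 0.462 FPKM, a 1.51-fold lower value, and NM_001145260 stayed at or below 0.107 FPKM. Shares of one gene are not altered by a common scaling of the columns, but they rest on how Cufflinks assigned fragments to overlapping transcripts. RefSeq names 4 NCOA4 pseudogenes.

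SLC40A1 codes for ferroportin, the only known iron exporter of vertebrate cells. It lies on chromosome 2 (190425316 to 190445537), with 1 listed transcript, NM_014585. Its level was 0.619 FPKM in normoxia and 1.18 in hypoxia (log2 change 0.83, 1.77-fold), at percentile 95.0 of all genes. This was the largest difference among the members and the lowest level, ranking 11600th of 12103 genes in normoxia. TFRC mRNA exceeded it 592-fold in normoxia and 352-fold in hypoxia. With a pseudocount of 1 FPKM the log2 change of SLC40A1 was 0.43 and no longer passed 1.5-fold, and a stricter minimum of 1 FPKM left the gene out.

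Among the sensors, IREB2 (IRP2), on chromosome 15 (78730518 to 78793798), had 17.5 FPKM in normoxia and 16.2 in hypoxia (log2 change -0.11), at percentile 46.6. ACO1, the iron-sulphur enzyme that turns into IRP1 when it loses its cluster, is no member but was fixed as its counterpart. It had 15.5 and 21.1 FPKM (log2 change 0.44), at percentile 84.9. The FPKM of IREB2 was 1.13 times that of ACO1 in normoxia and 0.768 times in hypoxia.

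FBXL5, the substrate receptor of the ubiquitin ligase that removes IRP2, lies on chromosome 4 (15606007 to 15657035). Its summed level was 21.0 FPKM in normoxia and 16.9 in hypoxia (log2 change -0.31), at percentile 28.7. All 4 listed transcripts had lower values in hypoxia as deposited, to differing degrees. The main transcript, NM_012161, had 17.1 and 14.9 FPKM (log2 change -0.20). NM_001193535 had 3.07 and 1.22 FPKM (log2 change -1.26), 2.40-fold lower and the largest difference of any member transcript past the FPKM minimum. It made up 14.6% of the summed FBXL5 FPKM in normoxia and 7.22% in hypoxia.

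Taking the transcripts singly, 20 of the 26 averaged 0.5 FPKM or more. Of these 20, 2 were at least 1.5-fold higher (SLC40A1 NM_014585 and NCOA4 NM_001145262), where 10.5% of all 18190 such transcripts were. Another 2 were at least 1.5-fold lower (FBXL5 NM_001193535 and NCOA4 NM_001145261), where 14.3% of all were. NM_001145261 passed the minimum only through normoxia, where it was higher (0.751 FPKM, against 0.462 in hypoxia). Their median log2 change was -0.04, against -0.09 for all transcripts.

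**Figure D3:**
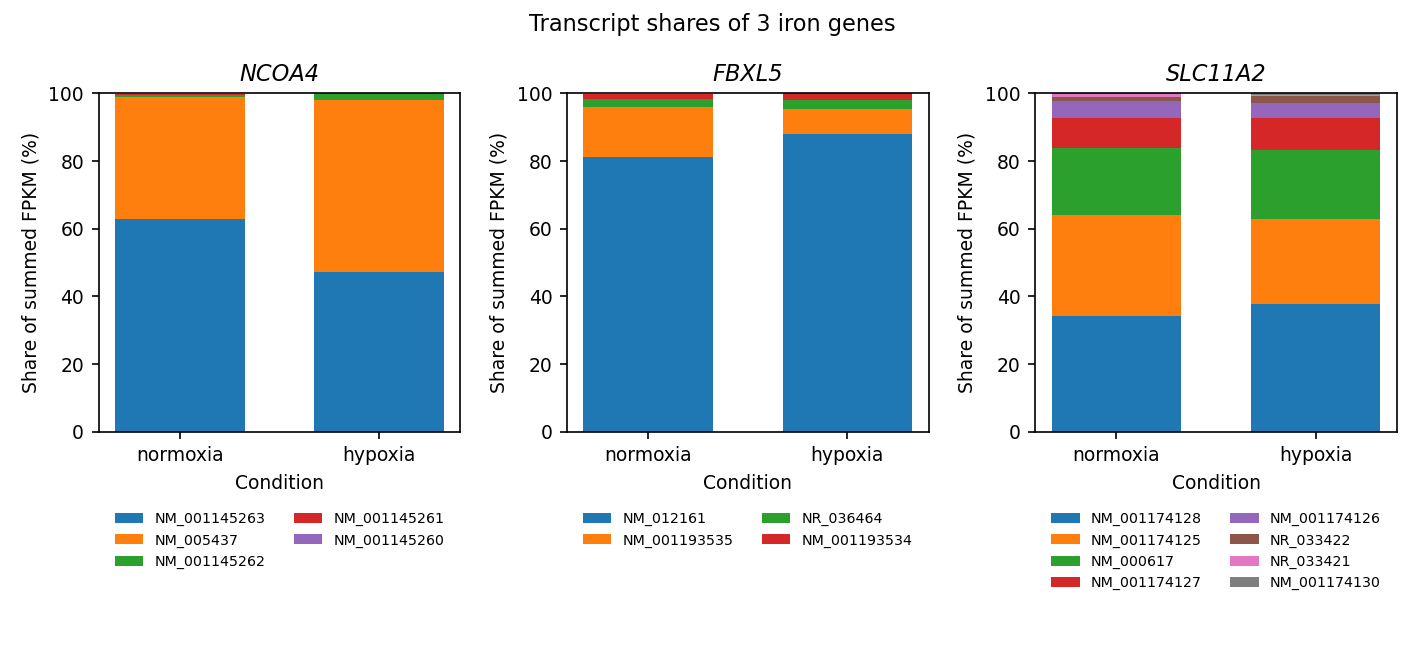
Share of each listed transcript in the summed FPKM of NCOA4, FBXL5 and SLC11A2, in percent, in normoxia and hypoxia. NM_001145263 of NCOA4 goes from 63.0% to 47.1% and NM_001193535 of FBXL5 from 14.6% to 7.22%, while the SLC11A2 share that differs most, that of NM_001174125, does so by -4.93 percentage points.

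Promoters were searched for the core of the hypoxia response element, ACGTG or GCGTG on either strand, because the hypoxia-inducible factors bind it. The RefSeq table (GRCh38.p14, 250 bases before to 50 after each start) held 13 promoters of 8 members, all but FTH1. A core was found in 7 of these 13, where 48.4% of all 35116 promoters held one. The ACGTG form was found in 3 of the 13, the single promoters of TFRC, FTL and FBXL5, and 21.4% of all promoters held that form. These windows are printed with their GRCh37 positions, found by exact match, and with the core in capitals as it reads on the gene's strand. Distances are from the starts of these RefSeq promoters, which for TFRC and FBXL5 differ from the ends of the loci given above.
TFRC promoter, 88 bases before the start, chr3:195809037-195809057: gcgagcgtACGTGcctcagga
FBXL5 promoter, 119 bases before the start, chr4:15657087-15657107: gcccggtcACGTGggccgcag
FTL promoter, 11 bases before the start, core on the opposite strand, chr19:49468547-49468567: gccctagcCACGTcccctcgc
The FBXL5 core lies in a palindrome, so that it was counted on both strands. TFRC had a higher value in hypoxia and FTL and FBXL5 lower ones, and the SLC40A1 window held no core. Binding was not measured.

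A wider list of 66 other genes of iron handling was described in the same way. Of these, 59 were listed and 55 passed the FPKM minimum, of which 7 were at least 1.5-fold higher and 6 lower in hypoxia, to be read against 9.94% and 11.2% of all genes. The 7 include HEPHL1, which passed the minimum only through its hypoxia value. The median log2 change of the 55 was -0.07, the same as that of all genes at this precision. TF, transferrin itself, was not listed. The chaperones that hand iron to ferritin were nearly level, PCBP1 with 16.5 FPKM in normoxia and 16.1 in hypoxia and PCBP2 with 42.7 and 43.4.

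Export and its regulation held the largest difference. CP, the ferroxidase ceruloplasmin that works with ferroportin, had 10.2 FPKM in normoxia and 34.3 in hypoxia (log2 change 1.73), at percentile 99.1. HEPHL1, a related ferroxidase, had 0.692 FPKM in hypoxia (log2 change 0.66), and FLVCR2, a relative of the heme exporter FLVCR1, had 0.638 and 1.32 (0.94). These were the 3 higher of 5 measured genes of the group, with 0 lower, beside 9.94% and 11.2% of all genes. HEPHL1 and FLVCR2 lay near the FPKM limit, and with a pseudocount of 1 FPKM their log2 changes were 0.27 and 0.50, so that CP alone passed 1.5-fold. HEPH and HAMP, which code for hephaestin and hepcidin, were not listed.

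Among the 9 measured genes of uptake and reduction, 1 was higher and 1 lower, beside 9.94% and 11.2% of all genes. Under each of the 3 other scalings 2 were higher and 1 lower, where 11.6% to 18.3% of all genes were higher and 4.94% to 8.76% lower. HFE, the partner of the transferrin receptor that is altered in hereditary haemochromatosis, had 12.7 FPKM in normoxia and 19.1 in hypoxia (log2 change 0.59, or 0.56 and within 1.5-fold with a pseudocount of 1 FPKM). STEAP1, a family member of STEAP3, had 14.7 and 7.35 FPKM (log2 change -0.99), at percentile 2.69, and thus differed in the direction opposite to STEAP3. Of the other mRNAs with a described IRE, EPAS1, which codes for the oxygen-regulated HIF2 alpha subunit, had 19.9 and 34.7 FPKM (log2 change 0.80), and the other 4 measured genes stayed within 1.5-fold. Thus 1 of these 5 was higher and 0 were lower as deposited, beside 9.94% and 11.2% of all genes. The 3 other scalings gave the same 1 and 0, beside 11.6% to 18.3% and 4.94% to 8.76% of all genes.

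Genes for mitochondrial iron and iron-sulphur clusters had mostly lower values as deposited, and their median lay below that of all genes under each scaling. As deposited, 14 of 16 measured genes lay below 0 and the median log2 change was -0.23, against 56.4% below 0 and a median of -0.07 for all genes. After scaling to equal sums 8 of the 16 lay below 0, with a median of -0.0012 beside 0.15 for all genes. After quantile normalization 12 did, with a median of -0.069 beside 0.015 for all genes. Centring gave a median of -0.16 beside 0 for all genes. GLRX5, a glutaredoxin that passes on clusters, had 141 FPKM in normoxia and 76.1 in hypoxia (log2 change -0.89). SLC25A28, the iron importer mitoferrin 2, had 14.0 and 8.10 FPKM (-0.79), and HSCB, a cochaperone of cluster transfer, had 18.6 and 11.4 (-0.70). As deposited these were the 3 lower genes of the group and 0 were higher, beside 11.2% and 9.94% of all genes. With equal sums 1 was lower and 1 higher, since SLC25A28 (-0.56) and HSCB (-0.47) no longer passed 1.5-fold. Of all genes, 4.94% were lower and 18.3% higher at that scaling. After centring 3 of the group were lower and 1 higher, beside 8.76% and 12.4% of all genes. Quantile normalization gave the same 3 and 1, beside 8.44% and 11.6% of all genes.

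CPOX, an enzyme of heme synthesis, had 17.3 FPKM in normoxia and 32.0 in hypoxia (log2 change 0.88), whereas UROD, which acts one step earlier, had 21.9 and 14.2 FPKM (-0.63). HMOX1, the inducible heme oxygenase that frees iron from heme, had 1.11 and 1.72 FPKM (0.59), and its constitutive relative HMOX2 had 34.0 and 19.4 (-0.81). Of the 13 measured heme genes, 2 were higher and 2 lower, near the 9.94% and 11.2% of all genes. UROD no longer passed 1.5-fold under any of the 3 other scalings (-0.40 to -0.56), which left 1 lower gene, beside 4.94% to 8.76% of all genes. Under these scalings 2 or 3 heme genes were higher, beside 11.6% to 18.3% of all genes. HMOX1 did not pass 1.5-fold with a pseudocount of 1 FPKM (0.37).

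**Figure D4:**
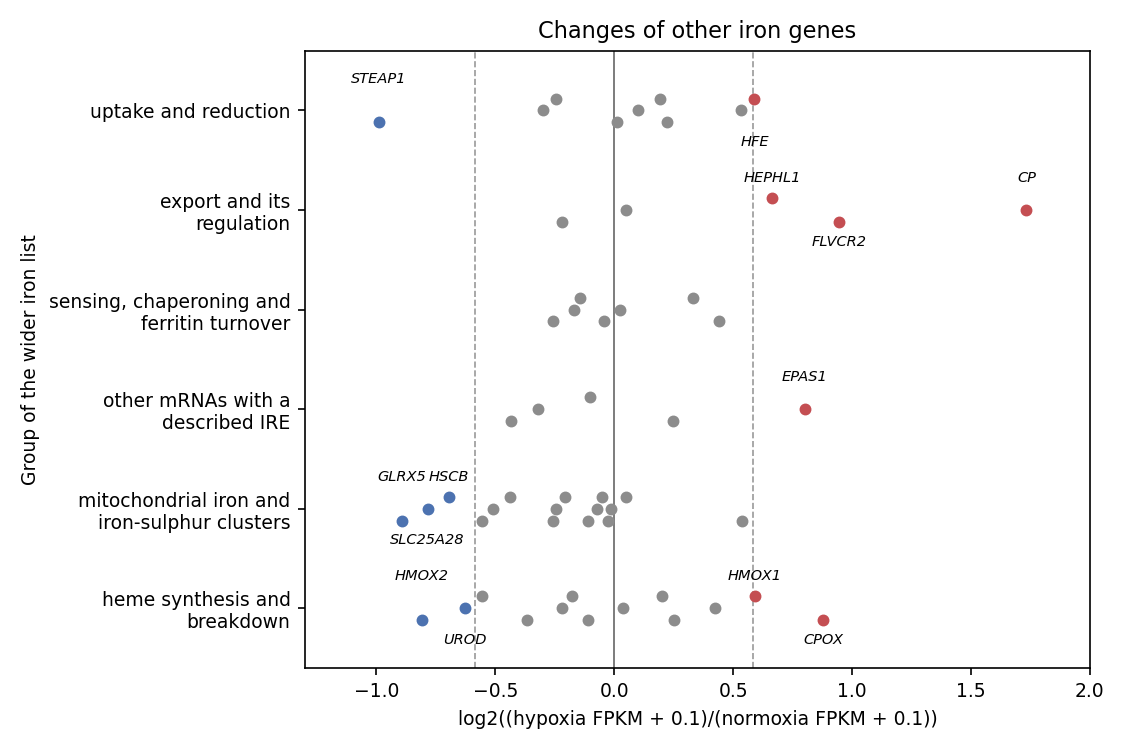
log2 change (hypoxia over normoxia, with 0.1 FPKM added) of the 55 other iron genes past the FPKM minimum, by group, with dashed lines at 1.5-fold. The 7 genes past the right line and the 6 past the left line are named and coloured, and CP lies farthest from 0 at 1.73.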

How the data were processed

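Poly(A)-selected stranded libraries of 4 normoxic and 4 hypoxic SQ20B samples were sequenced by the authors, aligned with STAR 2.3.0.1 to RefSeq hg19 and quantified with Cufflinks 2.1.1 (Cuffdiff, standard parameters). The deposited FPKM values are the authors', 1 per transcript and condition, pooled over the 4 libraries. The table also holds Cuffdiff's fold changes, test statistics, p-values and q-values, which were not used. Since single libraries had no column of their own, no test was run. Accessions were paired with symbols through RefSeq (GRCh38.p14, names only), which matched 24289 entries (97.9%). Locus starts were raised by 1 to count from 1. Changes used log2 with a pseudocount of 0.1 FPKM, which understates those of low genes. A mean of at least 0.5 FPKM and a limit of 1.5-fold were used. Named genes are the 9 members, genes of the wider list past the limit, and ACO1, TF, PCBP1 and PCBP2. CYBRD1, LCN2, SLC39A14, SLC39A8, HERC2, HEPH, HAMP and the transcripts described were picked after their values were seen. Members and lists were chosen with earlier results of these data known. The change was tested on simulated data. Alternatives for pseudocount, filter, scaling, fold and transcript choice were computed. Python 3.11.15, numpy 2.4.6, pandas 2.3.3 and matplotlib 3.10.9 were used.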

Additional observations from a re-analysis of the deposited data

How the results depend on the processing

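No paired analysis was possible because the table gives 1 pooled value per condition, and leaving out replicates was not possible for the same reason. The median log2 change of the 9 members, -0.10, turned to 0.12 with columns scaled to equal sums, to 0.17 after quantile normalization and to 0.037 with the most abundant transcript alone. Their count of higher genes went from 1 to 0 with a pseudocount of 1 FPKM, with a mean of at least 1 FPKM or with a limit of 2-fold, and at 1.2-fold 2 were lower. Scaling to equal sums turned SLC11A2, NCOA4, IREB2 and PCBP1 to 0.12, 0.12, 0.12 and 0.18. Quantile normalization turned NCOA4, IREB2 and PCBP1 to 0.17, 0.015 and 0.074, centring turned PCBP1 to 0.027, and the most abundant transcript alone gave 0.037 for SLC11A2. In the wider list, 7 higher and 6 lower of 55 genes became 11 and 3 with equal sums, where 18.3% and 4.94% of all genes were. They became 12 and 14 at 1.2-fold and 1 and 0 at 2-fold, and 3 were higher with a pseudocount of 1 FPKM. Shares of all genes at other fold limits, pseudocounts or minima are not given here, so those counts stand without a comparison. The median of the wider list turned to 0.15 with equal sums and 0.020 after quantile normalization, beside 0.15 and 0.015 for all genes. The cause of the shifts between scalings was not tested. The most abundant transcript alone gave -0.53 for NCOA4, which is the value of NM_001145263 without NM_005437 (0.41). Without replicates or counts, sampling error cannot be given for any value, which weighs most on SLC40A1, HEPHL1 and FLVCR2 near 1 FPKM.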

Other observations

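PCBP2, an iron chaperone and RNA-binding protein, had a level sum but uneven transcripts. NM_001128914 had 12.1 FPKM in normoxia and 16.6 in hypoxia, and its share of the summed PCBP2 FPKM was 28.3% and 38.2%. NM_001128913 had shares of 28.1% and 20.4%. Of the 7 listed PCBP2 transcripts, none was at least 1.5-fold higher or lower as deposited. Of all 18190 transcripts past the FPKM minimum, 10.5% were higher and 14.3% lower.

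LCN2, a secreted protein that binds iron-laden siderophores, had 153 FPKM in normoxia and 178 in hypoxia. CYBRD1, a ferrireductase of the plasma membrane, had 20.4 and 29.5 FPKM (log2 change 0.53), within 1.5-fold as deposited. SLC39A14 and SLC39A8, which carry iron not bound to transferrin, had log2 changes of 0.014 and -0.30. HERC2, a ligase that marks NCOA4 for degradation, had 2.84 FPKM in normoxia and 3.60 in hypoxia (log2 change 0.33).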
